A study of Rattus norvegicus with 25 samples.

Results

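The comparison described here is between 5 rats given the esophageal carcinogen N-nitrosomethylbenzylamine (NMBA) together with a tocopherol mixture enriched in the gamma form and 5 rats given NMBA alone. Its members are the 10 arrays whose titles name these groups, of 25 arrays in the series, and each array holds total RNA of 1 male F344 rat, taken from its esophageal epithelium. The gamma-enriched group is labelled as an NMBA plus gamma enriched-tocopherol intervention, and both groups carry the same strain, sex and tissue labels. The 5 Control rats, which received no NMBA, and the 5 rats each given NMBA plus alpha-tocopherol or NMBA plus delta-tocopherol enter only where they place the gamma-enriched rats. The sources used here give no dose, route, duration, diet composition or age at sampling, nor the share of gamma-tocopherol in the mixture.

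NMBA is a nitrosamine that cells of the rat esophagus activate to a DNA-alkylating agent, and it is a standard inducer of squamous papilloma and carcinoma in that organ. Tocopherols are the saturated forms of vitamin E. They differ in the methyl groups on the chromanol ring: the gamma form lacks a methyl group that the alpha form carries, and the alpha form is the one the liver retains best. Interferon-gamma made by activated T cells and natural killer cells acts on epithelial and myeloid cells, in part through the transcription factor IRF1. It induces antigen processing genes, MHC genes and the chemokines CXCL9, CXCL10 and CXCL11, which draw more T cells through their receptor CXCR3.

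Levels are given as log2 of the processed signal minus the 75th percentile of that array's spots, so 0 is the 75th percentile of the array and a negative level lies under it. Levels of different genes come from different probes and are not compared with each other. Differences are the gamma-enriched mean minus the NMBA mean ± limma's SE, n = 5 rats in each group, and a gene was called when its Benjamini-Hochberg adjusted p over all 12343 tested genes was below 0.05. Nothing in the labels says beyond the rat number that samples were processed apart, but the groups lay on different slides, as given next. The p-values set each difference against the spread between rats within groups, pooled over the 5 groups of 25 arrays. They do not measure what differences between slides add to this comparison.

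The groups shared no slide. All gamma-enriched rats were hybridised on slide 2, NMBA rats 1 to 4 on slide 3 and NMBA rat 5 on slide 4. The bridge between slides 2 and 3 was thin: Control rat 1 lay on slide 2 and Control rats 2 to 5 on slide 3. Between 72.4% and 78% of spots were well above background in the gamma-enriched rats and between 70.6% and 75% in the NMBA rats, of 58717 spots on each array. The lowest level that still counted as well above background ran from -7.52 to -6.46 on the gamma-enriched arrays and from -6.59 to -5.55 on the NMBA arrays, so dim genes could be read at lower levels in the gamma-enriched rats. Gamma-enriched rat 3 stood apart from its group, with a median correlation to the other 4 of 0.961 across genes, against 0.974 to 0.979 for the others.

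Of 12343 tested genes 8.95% were called, the share beside which the counts of each gene list are to be read. The lists were chosen with earlier results of these data known, so a high share in a list is not independent support. The calls were one-sided: 909 genes (7.36%) were lower in the gamma-enriched rats and 196 (1.59%) were higher, and 82.3% of calls were therefore falls. The median difference over all tested genes was -0.10, and 7529 of them (61%) had a negative difference. Of the called genes, 495 (4.01% of those tested) differed at least 2-fold, and 870 of all tested genes (7.05%) had 5 and 5 values that did not overlap. The 12 largest rises and 12 largest falls named below were taken only from called genes without overlap. For them the lack of overlap was fixed by the choice and is no further result. Called genes were not spread evenly over signal: with genes divided by mean level into 4 equal classes, the dimmest class held 60 rises and 477 falls, the brightest 5 rises and 197 falls, and the class under the brightest 57 rises and 90 falls. With quantile normalization the calls were 235 rises and 622 falls, so the share of falls was 72.6%.

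The levels of Control rat 1 moved with many of these calls. Over all tested genes it was the lowest of the 5 Control rats in 37.6%. Among the 909 genes called lower in the gamma-enriched rats it was the lowest in 685 (75.4%), and among the 196 called higher it was the highest in 88 (44.9%) against 19.9% of all tested genes. With slide as a fixed block in limma, 1 gene passed the adjusted threshold, and it was not among the 196 and 909. That gene was Plpp1, a lipid phosphate phosphatase, named after its value was seen, at 3.61 ± 0.34 (adjusted p = 1.15e-05 in limma) with the block and 0.26 ± 0.46 without it. The median SE of a gene rose from 0.205 to 0.408 with the block, and 734 of the called genes kept their sign. The block's value for a gene sets the gamma-enriched rats against Control rat 1, and NMBA rats 1 to 4 against Control rats 2 to 5. NMBA rat 5, alone on slide 4, adds nothing to it. A trait of Control rat 1 therefore cannot be told apart from slide. Slide and group cannot be told apart beyond what that bridge carries. Values with the block are given beside the main immune, mitotic and epithelial groups but not beside every list. Leaving out gamma-enriched rat 1, gamma-enriched rat 2, NMBA rat 1 or NMBA rat 2 alone gave 648, 608, 546 and 607 calls. As a check added after the data were seen, 156 genes were called without NMBA rats 2 and 3, whose arrays had the fewest spots well above background.

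The list of CXCR3 and its ligands was among those chosen with earlier results known. All 4 tested members were called lower against 8.95% of all genes, with a median difference of -2.21. Cxcl9 had levels of 0.25, -2.25, -1.68, -0.22 and 0.03 in gamma-enriched rats 1 to 5 and 2.09, 1.39, 1.53, 0.37 and 2.05 in NMBA rats 1 to 5. No gamma-enriched rat reached the lowest NMBA rat, rat 4, and the difference was -2.26 ± 0.51, or 4.79-fold lower (adjusted p = 0.00906, limma). Cxcl11 had levels of -2.99, -5.97, -4.42, -4.30 and -4.20 in the gamma-enriched rats and -1.26, -2.09, -2.16, -2.94 and -1.34 in the NMBA rats. The closest pair, gamma-enriched rat 1 and NMBA rat 4, were almost level, while the group means differed by -2.42 ± 0.43, which is 5.35-fold (adjusted p = 0.00364, limma).

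Cxcl10, the third ligand, had levels of -2.30, -4.89, -3.76, -1.64 and -2.54 in the gamma-enriched rats and -0.04, -0.57, -1.16, -1.89 and -0.63 in the NMBA rats. Gamma-enriched rat 4 lay above NMBA rat 4, so these groups overlapped, with a difference of -2.17 ± 0.53 (adjusted p = 0.0132, limma). The receptor gene Cxcr3, carried by activated T cells and natural killer cells, differed by -1.70 ± 0.42 (adjusted p = 0.0140, limma), and here NMBA rat 4 at -3.70 lay among the gamma-enriched rats, which ran from -5.34 to -3.52. With slide as a fixed block none of the 4 passed, and the list's median was -1.45. Control rat 1 was the lowest Control rat for 3 of the 4. Within slides, the list's median lay 1.47 above Control rat 1 in the gamma-enriched rats of slide 2 and 3.18 above Control rats 2 to 5 in the NMBA rats of slide 3.

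**Figure D1:**
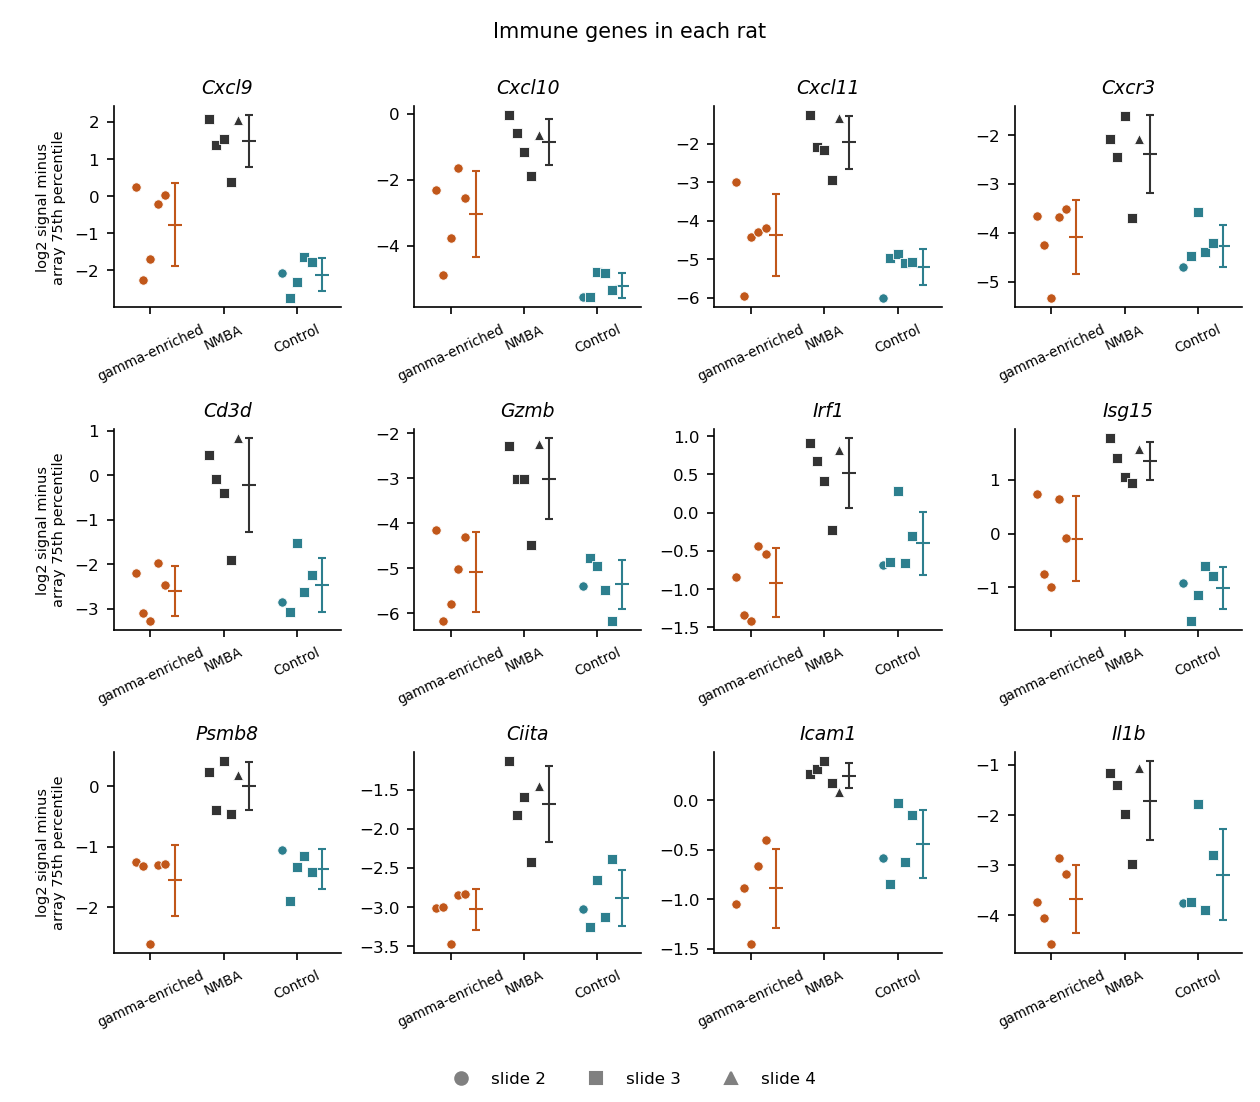
Levels of 12 immune genes in each rat, as log2 processed signal minus the 75th percentile of the array on the vertical axis, for the gamma-enriched, NMBA and Control rats. Each point is 1 rat, its shape gives the slide, and the bar to the right of each group is the mean ± SD (n = 5). NMBA rat 4 is the lowest NMBA rat in most panels, and for Cxcl9, Cxcl10 and Cxcl11 the mean of the gamma-enriched rats lies between the NMBA and Control means.

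CC chemokines, which recruit monocytes and lymphocytes, were called lower in 7 of 24 tested genes and higher in none, with a median of -0.84. Ccl12, a monocyte attractant, had levels of -6.98, -7.95, -8.64, -5.82 and -5.81 in the gamma-enriched rats and -4.33, -4.22, -2.94, -4.65 and -5.26 in the NMBA rats. The groups did not overlap, and 2 of the gamma-enriched arrays were not well above background for it, so its difference of -2.76 ± 0.61 (adjusted p = 0.00829, limma) rests in part on signals near the floor. Ccl1 differed by -2.48 ± 0.47 but was well above background on 1 gamma-enriched and 4 NMBA arrays. Ccl5, released by activated T cells, had a difference of -1.71 ± 0.42 and Ccl7 one of -1.66 ± 0.47, and both were well above background on all 10 arrays. Ccl11, the eosinophil attractant, had a value of 0.69 and did not pass. The lymphotactin gene Xcl1 was the single called gene among 15 other CXC, CX3C and XC family members, at -0.91 ± 0.19. The median of the CC list with slide as a block was -0.58, and NMBA rat 4 was again the lowest NMBA rat for Ccl5, at -2.40.

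Some of the genes that carry and answer the interferon signal were called lower. Among 16 tested interferon ligands, receptors and signalling genes, 5 were called lower and 0 higher, with a median of -0.39, and among 35 interferon-induced genes 11 were called lower and 0 higher, with a median of -0.65. Irf1, the gene of a transcription factor induced by interferon-gamma, had levels of -0.84, -1.34, -1.42, -0.44 and -0.54 in the gamma-enriched rats and 0.91, 0.68, 0.42, -0.23 and 0.82 in the NMBA rats. Its groups did not overlap and differed by -1.43 ± 0.30 (adjusted p = 0.00669, limma).

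Stat2, which acts in the response to type I interferon, differed by -0.66 ± 0.18. Isg15, which encodes a ubiquitin-like modifier, differed by -1.45 ± 0.30, Gbp5, a guanylate-binding protein gene induced by interferon-gamma, by -1.82 ± 0.41, and Irf7, the amplifier of the type I response, by -1.08 ± 0.20. Lgals3bp, a secreted glycoprotein gene, had a difference of -1.11 ± 0.26. The receptor gene Ifnar1 at 0.09 and the kinase genes Jak2 at 0.23 and Jak1 at 0.59 had positive differences and did not pass. Ifnb1 was called at -1.24 ± 0.27, yet it was well above background on 2 gamma-enriched and 2 NMBA arrays, Control rat 1 was the lowest Control rat for it, and its sign turned with the slide block (0.15). For the induced genes the median with the block was -0.70, near the -0.65 without it, and Control rat 1 was the lowest Control rat for 11 of 35 (31.4%).

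The promoters of several of these genes hold the interferon-stimulated response element, a DNA site that factors of the IRF family bind. It was searched on both strands as GAAA, any 2 bases and again GAAA, in the RefSeq promoters of the GRCr8 assembly, from 250 bases before to 50 bases after each gene's start. These letters occurred in 1049 of 27457 promoters (3.82%) and in 298 of the 10059 tested genes with a promoter entry (2.96%). Among genes called lower they occurred in 54 of 735 (7.35%), and among genes called higher in 3 of 163 (1.84%). For the interferon, MHC class I and CXCR3 lists the counts were 15 of 26 called genes (57.7%) and 32 of 61 tested genes (52.5%), and the excess over all promoters was therefore present in the lists whether or not a gene was called. The stretches below are shown because each belongs to a gene called lower; each is printed on the strand of its gene with the match in capitals. For Cxcl10 and Lgals3bp the capitals hold GAAA at both ends, and for the others the opposite strand does.
Cxcl10, chr14:15988816-15988857, plus strand: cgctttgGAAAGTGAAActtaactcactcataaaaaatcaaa
Irf7, chr1:205800058-205800117, minus strand: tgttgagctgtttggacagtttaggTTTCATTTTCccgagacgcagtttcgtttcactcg
Gbp5, chr2:233910918-233910977, plus strand: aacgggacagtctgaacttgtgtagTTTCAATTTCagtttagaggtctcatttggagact
Lgals3bp, chr10:104127864-104127923, minus strand: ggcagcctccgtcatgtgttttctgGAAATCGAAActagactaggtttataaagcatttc
Psmb8, chr20:4657001-4657060, minus strand: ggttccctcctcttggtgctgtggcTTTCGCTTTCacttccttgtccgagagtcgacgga
Tap1, chr20:4668630-4668689, minus strand: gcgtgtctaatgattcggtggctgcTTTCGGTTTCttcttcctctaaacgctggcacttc

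The gamma-activated site, a promoter element of genes that answer interferon-gamma, was searched as TTCNNNGAA, a pattern that reads the same on both strands. It occurred in 8.68% of all promoters, 7.06% of tested genes and 66 of 735 genes called lower (8.98%). In the interferon, class I and CXCR3 lists it occurred in 6 of 26 called genes (23.1%) and in 15 of 61 tested genes (24.6%). It is shown in capitals for Irf1 and for Icam1, an adhesion gene called lower.
Irf1, chr10:38417768-38417826, plus strand: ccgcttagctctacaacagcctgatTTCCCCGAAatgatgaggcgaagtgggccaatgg
Icam1, chr8:27829713-27829771, plus strand: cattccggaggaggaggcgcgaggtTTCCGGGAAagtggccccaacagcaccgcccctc

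Antigen presentation genes were called lower in both MHC pathways. In the class I pathway 10 of 16 tested members were called lower, and the median was -0.62. All 16 had negative differences, against 61% of all tested genes. Psmb8, a catalytic subunit of the immunoproteasome, had levels of -1.25, -1.32, -2.60, -1.30 and -1.28 in the gamma-enriched rats and 0.23, -0.39, 0.42, -0.45 and 0.19 in the NMBA rats. The gamma-enriched rats other than rat 3 sat within a narrow band well under every NMBA rat, and the difference was -1.55 ± 0.29 (adjusted p = 0.00397, limma). Its partner subunit Psmb9 differed by -1.48 ± 0.28, the peptide transporter gene Tap1 by -0.91 ± 0.21, and the class I heavy chain gene RT1-S3 by -0.89 ± 0.23, with NMBA rat 4 inside the gamma-enriched range for both Tap1 and RT1-S3. Within slide 2 Psmb8 lay 0.50 lower in the gamma-enriched rats than in Control rat 1 (a difference of -0.50), whereas within slide 3 it was 1.40 higher in NMBA rats 1 to 4 than in Control rats 2 to 5.

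In the class II pathway, by which antigen-presenting cells and interferon-treated epithelium show peptides to helper T cells, 9 of 10 tested members were called lower, with a median of -1.09. Ciita, the master activator of class II transcription, had levels of -3.01, -3, -3.47, -2.84 and -2.83 in the gamma-enriched rats and -1.13, -1.82, -1.59, -2.43 and -1.45 in the NMBA rats. All gamma-enriched rats lay under NMBA rat 4, and the difference was -1.34 ± 0.24 (adjusted p = 0.00364, limma). RT1-DMb, which encodes a chain of the peptide editor, had levels of 0.90, 1.04, 0.44, 1.11 and 1.19 against 2.44, 2.12, 2.24, 1.28 and 2.33. NMBA rat 4 was again the one close to the gamma-enriched rats, and the difference was -1.15 ± 0.22 (adjusted p = 0.00416, limma). RT1-DOa at -1.41 ± 0.35, RT1-Bb at -1.15 ± 0.26 and the invariant chain gene Cd74 at -1.06 ± 0.18 were also called, and RT1-Ba, at 0.44 ± 0.56, was not. RT1 genes are close relatives, and a probe may read more than 1 of them. With the slide block the class II median was -1.12 and the class I median -0.40, with none called, and Control rat 1 was the lowest Control rat for 1 of the 10 class II genes.

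Markers of T cells were lower in 15 of 23 tested genes and higher in none, with a median of -1.44. Cd3d, a chain of the T cell receptor complex, had levels of -2.20, -3.09, -3.28, -1.98 and -2.47 in the gamma-enriched rats and 0.45, -0.09, -0.40, -1.91 and 0.84 in the NMBA rats. NMBA rat 4 was just above the highest gamma-enriched rat and the other NMBA rats were far above it, with a difference of -2.38 ± 0.45, or 5.21-fold lower (adjusted p = 0.00416, limma). Cd3e differed by -2.13 ± 0.43 and the cytotoxic co-receptor gene Cd8b by -2.17 ± 0.42. Cd27, a co-stimulatory receptor gene, had the largest difference of the list at -2.87 ± 0.72, with 2 gamma-enriched and 4 NMBA arrays well above background. The helper co-receptor gene Cd4 at -0.38 ± 0.40, Cd8a at -0.88 ± 0.41 and the regulatory T cell factor gene Foxp3 at 0.11 ± 0.37 did not pass. In bulk tissue, fewer cells of a type and less RNA per cell cannot be told apart.

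Cytotoxic lymphocyte markers were called lower in 9 of 12 tested genes, with a median of -1.40, but the groups overlapped for all 12. Gzmb, the granzyme that cuts caspases in target cells, had levels of -4.15, -6.16, -5.80, -5.01 and -4.30 in the gamma-enriched rats and -2.29, -3.02, -3.01, -4.48 and -2.24 in the NMBA rats. NMBA rat 4 lay within the gamma-enriched range and the other NMBA rats above it, and the difference was -2.07 ± 0.45 (adjusted p = 0.00728, limma). The granule protease gene Ctsw differed by -2.12 ± 0.42 and the perforin gene Prf1 by -1.32 ± 0.39. Gzmc, a granzyme gene outside the list and among the 12 largest falls, had levels of -4.93, -6.42, -5.68, -4.67 and -5.10 against -2.35, -3.07, -3.21, -4.15 and -2.49. Its groups did not overlap, as the rule for the largest falls required, and it differed by -2.30 ± 0.38 (adjusted p = 0.00364, limma). None of the T cell or cytotoxic markers passed with the slide block, with medians of -1.16 and -1.67.

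The mean level of the T cell markers, taken in each rat relative to each gene's mean over the 25 arrays, was -0.16, -0.45, -0.99, -0.29 and -0.15 in the gamma-enriched rats and 1.33, 0.93, 1.19, -0.05 and 1.41 in the NMBA rats. The Control rats ran from -0.53 to 0.19, so NMBA rat 4 and the gamma-enriched rats other than rat 3 were within the Control range. On the same scale the interferon-induced genes ran from -0.63 to 0.11 in the gamma-enriched rats, from 0.28 to 0.80 in the NMBA rats and from -0.27 to 0.01 in the Control rats. Without NMBA rats 2 and 3, 8 of the 23 T cell markers passed, at a median of -1.34, and 1 of the 4 CXCR3 genes, at -2.23.

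Other leukocyte lists had fewer calls, to be read beside the 8.95% of all tested genes that were called. The shares were 18.8% for macrophage and monocyte markers, 25% each for dendritic and B cell markers and 12.5% for neutrophil markers. Macrophage and monocyte markers had 3 of 16 called lower, namely Fcgr1a, an immunoglobulin receptor gene (-1.03 ± 0.30), Aif1 (-1.02 ± 0.25) and the complement gene C1qa (-0.90 ± 0.28), with a median of -0.43. Dendritic and Langerhans cell markers had 2 of 8 called, Cd80 and Zbtb46, and with the slide block the signs of both turned (0.10 and 0.08). B cell markers had 2 of 8 called: Fcrla differed by -1.35 ± 0.32, and Cd79b, above background on 0 gamma-enriched and 2 NMBA arrays, is given no fold, and its value with the slide block was -0.06. Of 8 neutrophil markers 1 was called, Fcnb at -1.99 ± 0.53, and of 9 mast cell markers none was. All 9 had negative differences, against 61% of all tested genes, with a median of -0.73. Gamma-enriched rat 3 had the lowest mean level of its group for both mast cell (-2.34) and macrophage markers (-1.49). For mast cell markers gamma-enriched rats 2, 4 and 5 (-0.11, 0.32 and -0.03) lay above NMBA rats 4 and 5 (-0.63 and -0.49).

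Genes of the NF-kB pathway, which relays signals from cytokine and pattern receptors, were called lower in 4 of 19 target genes and 2 of 9 subunits and regulators, with medians of -0.38 and -0.30 and no rise. Those shares were 21.1% and 22.2%, against 8.95% of all tested genes. Icam1, the adhesion molecule gene whose promoter is printed above, had levels of -1.05, -0.89, -1.45, -0.66 and -0.40 in the gamma-enriched rats and 0.27, 0.32, 0.40, 0.18 and 0.08 in the NMBA rats. The NMBA rats were tightly grouped above all gamma-enriched rats, NMBA rat 4 included, and the difference was -1.14 ± 0.19 (adjusted p = 0.00364, limma). Il1b, the interleukin-1 beta gene, had a difference of -1.97 ± 0.43 with overlapping groups, the anti-apoptotic gene Bcl2a1 one of -1.63 ± 0.29 and the receptor gene Cd40 one of -1.27 ± 0.25. The tumour necrosis factor gene Tnf, at -1.20 ± 0.40 (adjusted p = 0.0618, limma), did not pass. Nfkb2 at -0.62 ± 0.18 and the inhibitor gene Nfkbie at -0.52 ± 0.16 were the called subunit and regulator genes, and Rela, which encodes p65, had -0.50 ± 0.23 (adjusted p = 0.167, limma). The median of the target genes with the slide block was -0.51 and none passed. A broad pattern for NF-kB sites, GGG, any 5 bases and CC on either strand, occurred in 48.1% of all promoters and in 63.1% of tested genes with an entry. Among genes called lower it occurred in 53.6%, and among genes called higher in 65.0%. It occurred in 4 of 5 called genes of these lists with an entry, beside 20 of 23 tested genes of the same lists.

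**Figure D2:**
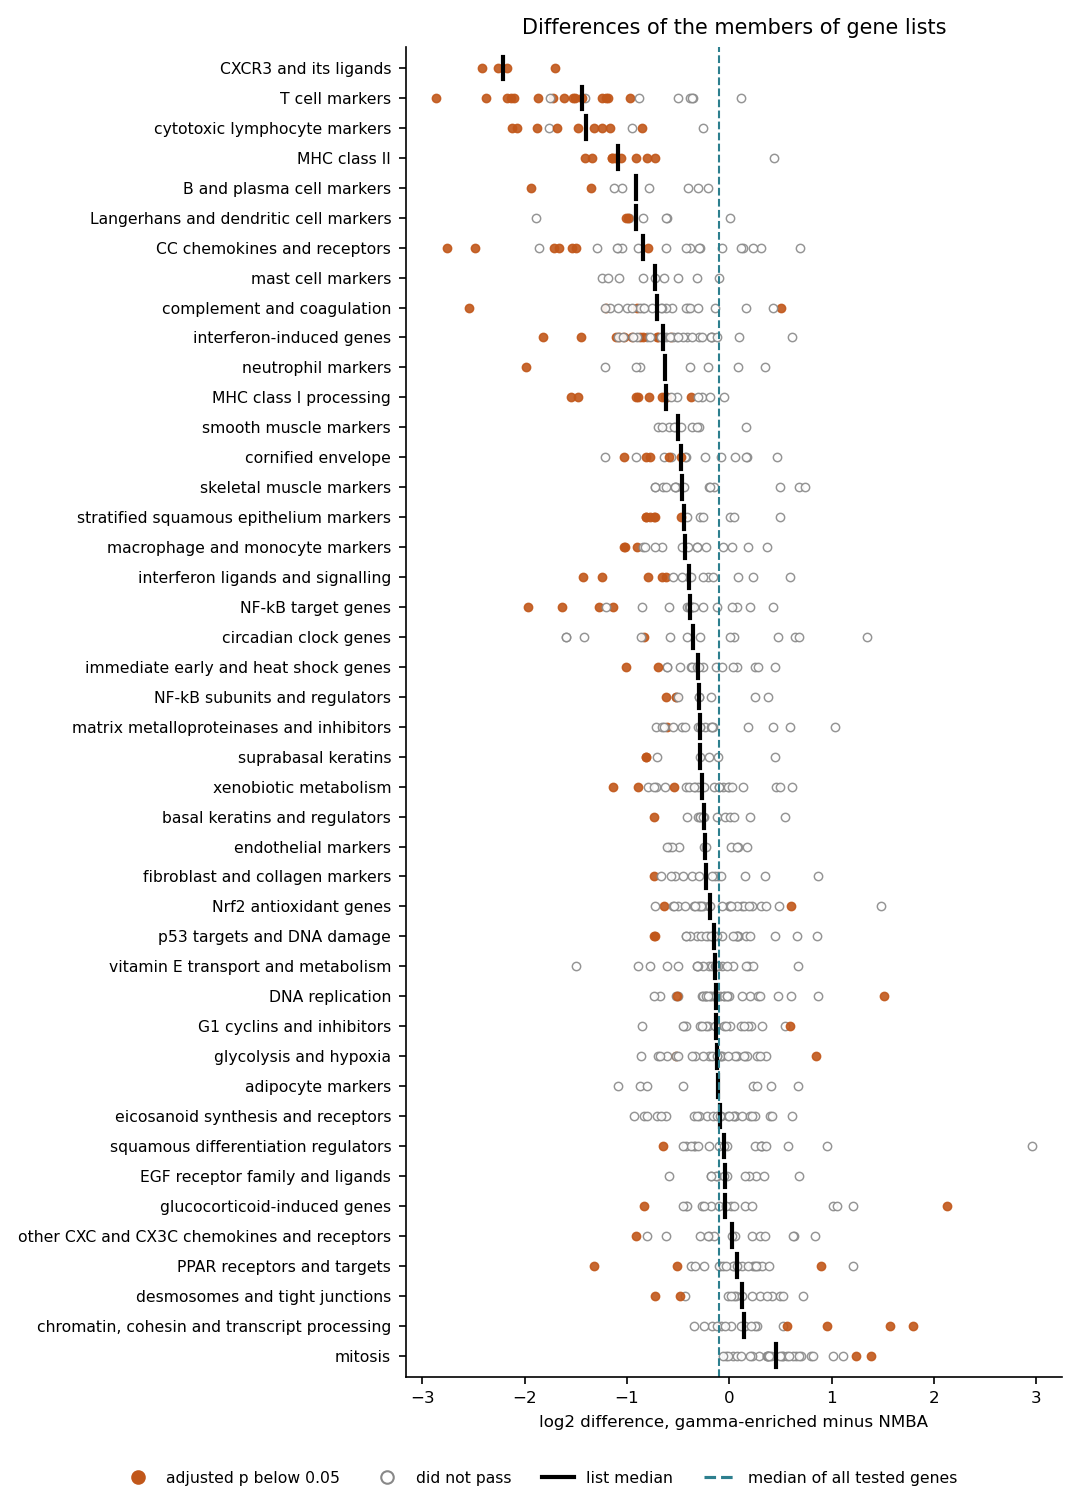
Differences of the tested members of 44 gene lists, gamma-enriched minus NMBA on the log2 scale, ordered by median. Each point is 1 gene, filled where limma's adjusted p was below 0.05; the black bar is the list's median and the dashed line the median of all tested genes at -0.10. The CXCR3, T cell, cytotoxic and MHC class II lists lie farthest to the left, and mitosis lies farthest to the right.

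Rises were fewer than falls. Pds5a, among the 12 largest by fitted difference whose groups did not overlap, encodes a regulator of the cohesin ring that holds sister chromatids. It had levels of -4.56, -5.38, -5.01, -5.66 and -5.14 in the gamma-enriched rats and -7.78, -7.65, -6.56, -6.42 and -6.35 in the NMBA rats. Every gamma-enriched rat was above every NMBA rat, but 4 of the NMBA arrays were not well above background for it, and the difference was 1.80 ± 0.33 (adjusted p = 0.00381, limma). In the list of chromatin, cohesin and transcript processing genes 4 of 18 were called, all higher, against 1.59% of all tested genes called higher, with a list median of 0.14. The others were the transcription factor gene Nfic (1.57 ± 0.31, well above background on 1 NMBA array), the splicing factor gene Son (0.96 ± 0.24) and the cohesin subunit gene Rad21 (0.56 ± 0.16). With the slide block their values were 1.05 for Pds5a, 0.71 for Nfic, 0.26 for Son and 0.90 for Rad21, none called, and Control rat 1 was the highest Control rat for Pds5a, Nfic and Son.

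Mitosis genes had a median difference of 0.46, with 27 of 30 tested members positive and 3 negative, where 61% of all tested genes were negative. Of the 30, 2 were called, both higher (6.67%, against 8.95% of all tested genes called and 1.59% called higher). Hmmr, a spindle-associated protein gene, had levels of -2.78, -3.13, -3.16, -3.72 and -3.24 in the gamma-enriched rats and -5.19, -4.96, -4.01, -4.36 and -4.49 in the NMBA rats. NMBA rats 1 and 2 were lowest and no NMBA rat reached the gamma-enriched range, with a difference of 1.39 ± 0.35 (adjusted p = 0.0152, limma). The spindle checkpoint kinase gene Bub1 differed by 1.24 ± 0.36, with NMBA rat 4 at -0.68 inside the gamma-enriched range. Control rat 1 was the highest Control rat for 2 of the 30 (6.67%), Bub1 among them, against 19.9% of all tested genes. Aurkb at 1.11 ± 0.37 and Cenpf at 1.01 ± 0.35, a mitotic kinase and a kinetochore gene, did not pass, nor did the proliferation marker Mki67 at 0.38 ± 0.32 (adjusted p = 0.469, limma). The per-rat mean of the list was 0.39, 0.08, 0.58, 0.25 and 0.22 in the gamma-enriched rats and -0.91, -0.69, 0.11, 0.12 and 0.43 in the NMBA rats. NMBA rats 1 and 2 thus stood apart from the other NMBA rats, which overlapped the gamma-enriched rats, and without NMBA rats 2 and 3 the list had no called gene in limma at a median of 0.42. Its median with slide as a block was 0.83, with none called.

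DNA replication genes had a median of -0.13, near that of all genes, with 1 of 34 called higher and 1 lower (together 5.88%, against 8.95% of all tested genes). The riser was Dbf4, the activator of the CDC7 kinase that fires replication origins. It had levels of -2.94, -3.29, -2.97, -3.13 and -3.01 in the gamma-enriched rats and -5.46, -4.73, -4.77, -3.46 and -4.50 in the NMBA rats. The gamma-enriched rats were within a narrow band above all NMBA rats, and the difference was 1.51 ± 0.36 (adjusted p = 0.0111, limma). Rfc3, a clamp loader gene, was the one called lower (-0.51 ± 0.16, and 0.05 with the slide block). Of 21 G1 cyclins and inhibitors 1 was called (4.76%), the retinoblastoma gene Rb1 at 0.59 ± 0.16, while cyclin D1 (Ccnd1) had -0.21 ± 0.17.

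Zbtb16, a zinc finger gene strongly induced by glucocorticoids, had the largest called rise of any list member. Its levels were -2.33, -1.69, -4.36, -2.54 and -2.18 in the gamma-enriched rats and -4.49, -4.81, -4.30, -4.89 and -5.26 in the NMBA rats. Gamma-enriched rat 3 lay among the NMBA rats and the other 4 were far above them, with a difference of 2.13 ± 0.42, or 4.38-fold higher (adjusted p = 0.00471, limma). The Control rats ran from -3 to -1.84, and the value with the slide block was 1.77, not called. Other glucocorticoid-induced genes did not pass: Sgk1 had 1.05 ± 0.57, Fkbp5 1.01 ± 0.36 and Tsc22d3 -0.03, and the list's median was -0.04. Per1, in both this list and the clock list, was called lower at -0.83 ± 0.23 but was well above background on 1 array of each group.

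Hif1a, the hypoxia-inducible factor subunit gene, rose by 0.85 ± 0.24, with groups that did not overlap. Its list of glycolysis and hypoxia genes had 2 of 27 called (7.41%, against 8.95% of all tested genes), at a median of -0.12. The other called member, Gpi, was lower, at -0.52 ± 0.16. Gsr, the glutathione reductase gene, rose by 0.60 ± 0.17 and Acot1, a fatty acyl-CoA thioesterase gene controlled by PPAR-alpha, by 0.90 ± 0.20. Of 23 PPAR receptor and target genes 3 were called (13%, against 8.95% of all tested genes), at a median of 0.08. Acot1 was the 1 called higher, and the 2 called lower were Fabp5 and Ppara, the PPAR-alpha gene. Ppara differed by -0.51 ± 0.14 (adjusted p = 0.0309, limma) and had 0.11 with the slide block. Among the remaining large rises Parpbp, a regulator of homologous recombination, had 1.69 ± 0.52 with 2 NMBA arrays well above background and Socs6, a cytokine signalling suppressor gene, 1.41 ± 0.41. The rise of Socs6 rests in part on NMBA rat 5, whose level of -6.44 was far under the -4.48 to -4.01 of the other NMBA rats. Muc15, a membrane mucin gene, differed by 1.23 ± 0.22, Sh3bgrl1 by 1.26 ± 0.26, Tanc1 by 1.28 ± 0.38, Gdap2 by 1.24 ± 0.36 and Klhl4 by 1.18 ± 0.35.

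**Figure D3:**
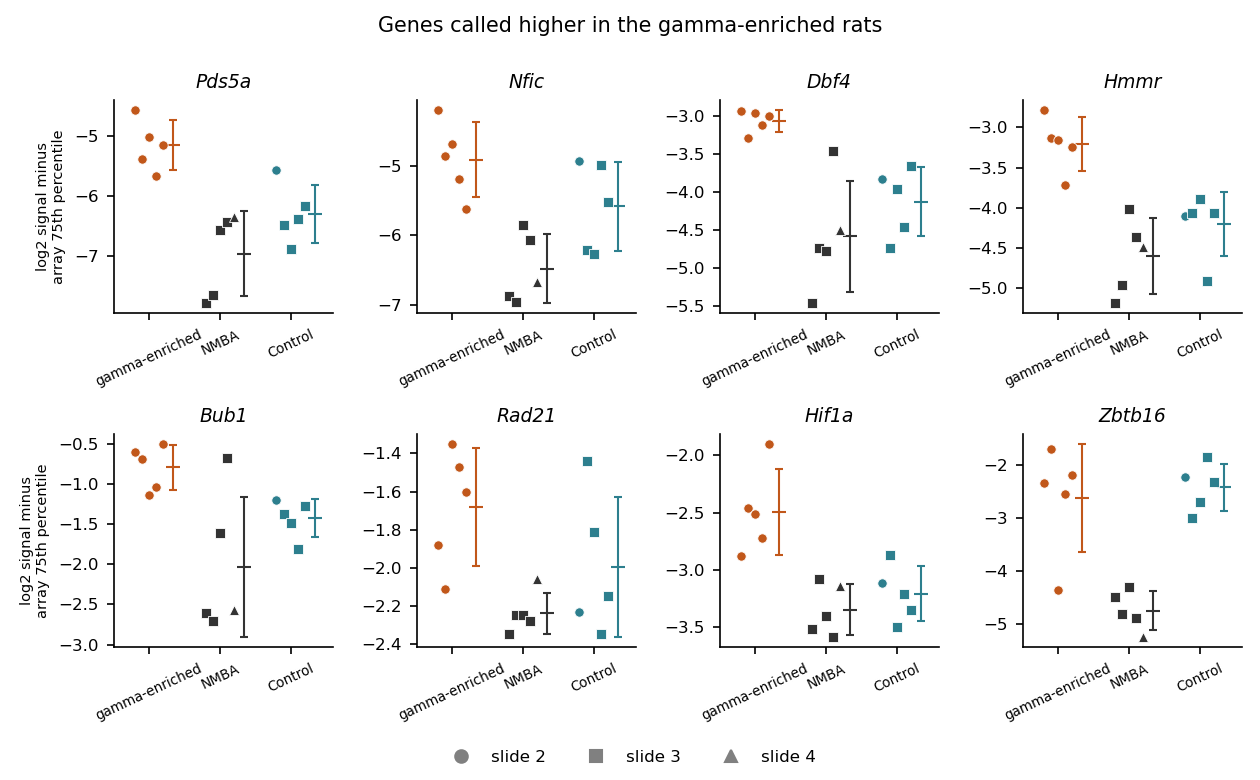
Levels of 8 genes called higher in the gamma-enriched rats, as log2 processed signal minus the 75th percentile of the array, with 1 point per rat, its shape giving the slide, and the mean ± SD (n = 5) beside each group. For Zbtb16, gamma-enriched rat 3 at -4.36 lies within the NMBA range, and for Pds5a, Nfic and Bub1 the Control rat of slide 2 is the highest Control rat.

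Genes of the squamous epithelium itself, the labelled tissue, were well above background on all 10 arrays for every keratin named here. Of 12 stratified squamous epithelium markers 6 were called lower and none higher, with a median of -0.44. Krt4, a keratin of the suprabasal layers of esophagus, had levels of 4, 3.99, 4.46, 4.15 and 3.96 in the gamma-enriched rats and 5.09, 4.95, 5.01, 4.74 and 4.85 in the NMBA rats. The groups did not overlap and differed by -0.81 ± 0.15, or 1.76-fold (adjusted p = 0.00383, limma). Its partner Krt13 differed by -0.81 ± 0.19 and the basal keratin Krt14 by -0.74 ± 0.17, while Krt5, at -0.29 ± 0.15, and the desmosomal cadherin Dsg3, at 0.50 ± 0.22, did not pass.

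The cornified envelope, the cross-linked protein shell of the outermost cells, had 5 of 17 genes called lower with a median of -0.47. Sprr3, a small proline-rich envelope protein of esophagus, differed by -1.03 ± 0.27, cornifelin (Cnfn) by -0.77 ± 0.18, cystatin M (Cst6) by -0.81 ± 0.23 and the cross-linking transglutaminase Tgm1 by -0.59 ± 0.15. Ivl, the involucrin gene, had 0.47 and did not pass. Fabp5, an epidermal fatty acid carrier gene, had levels of 4.54, 4.43, 5.60, 4.96 and 4.55 in the gamma-enriched rats and 6.51, 6.49, 6.20, 5.52 and 5.94 in the NMBA rats. Gamma-enriched rat 3 lay above NMBA rat 4 and the other rats were apart, with a difference of -1.32 ± 0.33 (adjusted p = 0.0144, limma).

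For many of these epithelial genes Control rat 1 also stood low, and slide and that rat cannot be told apart. Control rat 1, on the slide of the gamma-enriched rats, was the lowest Control rat for 10 of the 12 squamous markers (83.3%) and for 9 of the 17 envelope genes (52.9%), against 37.6% of all tested genes. For Fabp5 it stood at 4.32 against 5.60 to 5.93 in the other Control rats, and for Sprr3 at 4.35 against 5.39 to 5.77. Within slide 2 the squamous markers had a median of 0.13 in the gamma-enriched rats relative to Control rat 1, and within slide 3 a median of 0.11 in NMBA rats 1 to 4 relative to Control rats 2 to 5. With the slide block the squamous median was -0.03 and the envelope median 0, and the signs of Sprr3 (0.24), Cst6 (0.28) and Fabp5 (0.10) turned. Under quantile normalization none of the squamous markers was called lower, 1 was called higher and the median was -0.08, and the envelope list had 0 calls at -0.10. The rank of Control rat 1, the values within slides and the block values all rest on that 1 rat. The part of slide in the epithelial falls was otherwise not tested.

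**Figure D4:**
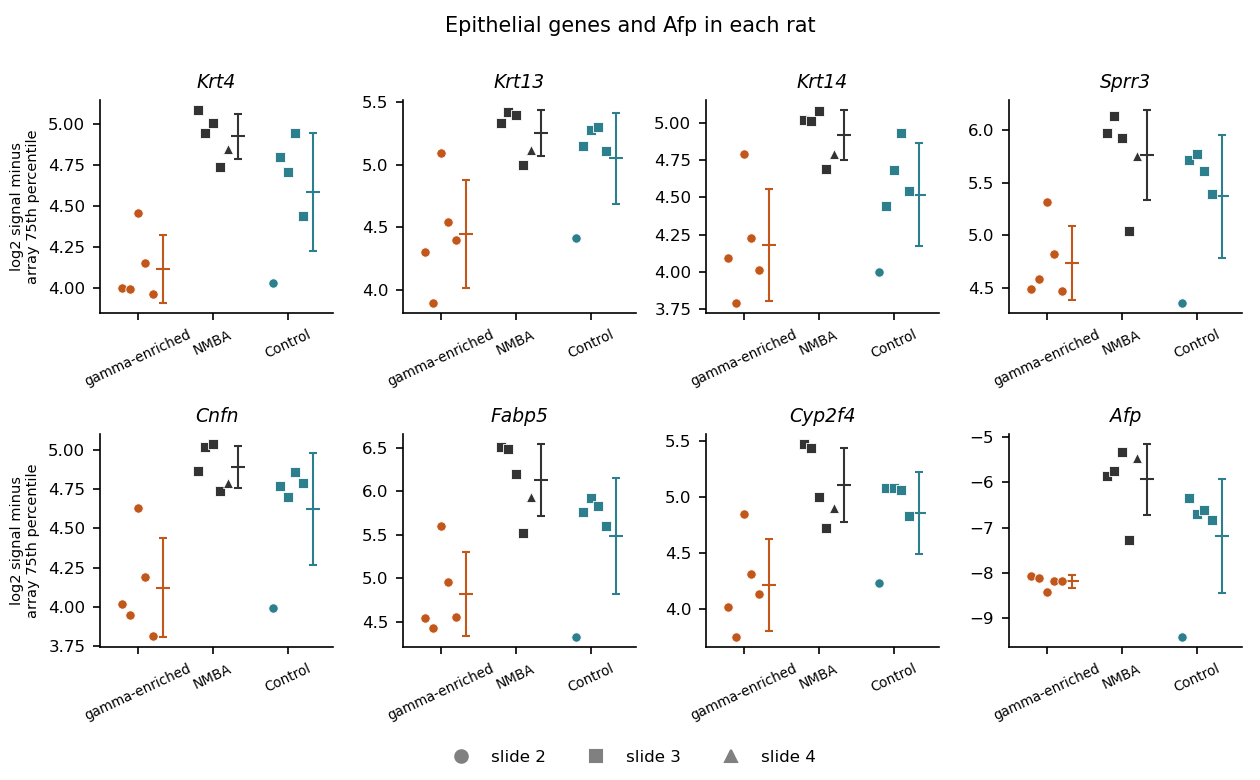
Levels of 7 epithelial genes and of Afp in each rat, as log2 processed signal minus the 75th percentile of the array, with 1 point per rat, its shape giving the slide, and the mean ± SD (n = 5) beside each group. The Control rat of slide 2 (round point) lies under the 4 Control rats of slide 3 in all 8 panels, at 4.03 for Krt4 and -9.42 for Afp.

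Several of the 12 largest falls were near or under background. Sslp1l1, Or52n3 and the alpha-fetoprotein gene Afp were well above background on 0 gamma-enriched arrays. Of the NMBA arrays 2, 2 and 4 were well above background for them, so for Sslp1l1 and Or52n3 neither group has a measured mean and no fold is given. For Afp the NMBA mean was set against the lowest signal that counted as well above background on each gamma-enriched array, which gave 2.09-fold lower. This is not a strict bound, since that mean includes NMBA rat 4 (-7.28), which was not well above background. Control rat 1 was the lowest Control rat for all 3 and for F10, and with the slide block the first 3 had values of 0.38, 0.05 and 0.67, opposite in sign. F10, the coagulation factor X gene, was 3.34-fold lower by the same reckoning, with the same limit from NMBA rat 4 (-6.79). It was above background on 0 gamma-enriched and 4 NMBA arrays, and kept a negative value with the block (-1.28). Vom2r75, a vomeronasal receptor gene, had -2.32 ± 0.35 with 3 gamma-enriched and 5 NMBA arrays above background. Control rat 1 was the lowest Control rat for Vom2r75 too, and its value with the block was -0.79 ± 0.60, not called. Hk3, a hexokinase of myeloid cells, had levels of -5.70, -6.73, -7.36, -5.62 and -5.84 against -3.06, -3.93, -3.99, -5.17 and -3.30. The groups did not overlap, as the rule for the largest falls required, and the difference was -2.36 ± 0.61 (adjusted p = 0.0176, limma). With the block Hk3 had -0.91 ± 1.21, not called.

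Genes tied to vitamin E, to antioxidant defence and to the carcinogen are given next, beside the 8.95% of all genes called. None of 23 genes of vitamin E uptake, transport and breakdown was called by limma, with 2 at an unadjusted p below 0.05 and a median of -0.14. Ttpa, the alpha-tocopherol transfer protein gene, had 0.16 ± 0.25, and Apoe, the brightest of the list, -0.32 ± 0.18, which turned to 0.27 with quantile normalization. Of 27 eicosanoid genes none was called by limma, 3 had an unadjusted p below 0.05 and the median was -0.09. The cyclooxygenase gene Ptgs1 had -0.32 there and Alox5ap, the helper protein gene of 5-lipoxygenase, -0.93, neither past the threshold. Mgmt, which removes the alkyl group that NMBA leaves on guanine, had levels of -0.10, 0.13, -0.20, 0.37 and -0.23 in the gamma-enriched rats and 0.81, 0.86, 0.54, 0.63 and 0.84 in the NMBA rats. Its groups did not overlap and differed by -0.74 ± 0.16 (adjusted p = 0.00716, limma), and the Control rats ran from -0.27 to 0.01.

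Mgmt and Perp, a p53-induced junction gene, were the 2 of 25 p53 and DNA damage genes that were called, and Cdkn1a, the p21 gene, had -0.42 ± 0.14 (adjusted p = 0.0639, limma). Of 29 Nrf2 antioxidant genes 1 rose (Gsr) and 1 fell (the ferritin gene Fth1, at -0.64 ± 0.20), and Nqo1 had -0.07 ± 0.14. Gclm, the modifier subunit gene of glutathione synthesis, had 1.48 ± 0.49 and did not pass. In xenobiotic metabolism 3 of 25 were called, all lower: the aryl hydrocarbon receptor repressor gene Ahrr (-1.14 ± 0.30), Cyp2f4 (-0.89 ± 0.21) and the glutathione transferase gene Gsta2 (-0.54 ± 0.16). Cyp2a3, a nitrosamine-activating cytochrome P450 gene, had -0.79 ± 0.39 (adjusted p = 0.200, limma). With the slide block Fth1 (0.23), Perp (0.26), Cdkn1a (0.27) and Nqo1 (0.11) had the opposite sign, and Mgmt had -0.76.

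In the circadian clock list 1 of 14 was called, Per1 (7.14%, against 8.95% of all tested genes). The list was mixed, with 8 negative and 6 positive differences at a median of -0.35. Chosen after their values were seen, the activators Npas2 and Bmal1 had 1.35 ± 0.49 and 0.64 ± 0.63. Their targets Per2, Dbp and Ciart, chosen likewise, had -1.60 ± 0.64, -1.42 ± 0.61 and -1.60 ± 0.94. None of these passed, so they show no called change of the clock. The time of day of sampling is not given in the sources used here. Egr3, an immediate early gene, was called at -1.01 ± 0.30 and had 0.73 with the slide block. Among complement and coagulation genes 3 of 24 were called lower and 1 higher, with F10, C2 (-1.20 ± 0.37) and C1qa on one side and the tissue factor gene F3 (0.51 ± 0.15) on the other, at a median of -0.71. Together these were 16.7% of the list, against 8.95% of all tested genes.

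Markers of tissue under the epithelium were measured in every sample. Smooth muscle (10 genes), skeletal muscle (15), endothelial (10), adipocyte (8) and red cell (6) markers had 0 calls by limma at medians of -0.50, -0.46, -0.24, -0.11 and -0.39, with 2, 1, 1, 2 and 2 genes at an unadjusted p below 0.05. Actg2, a smooth muscle actin gene, ran from 3.71 to 4.41 in the gamma-enriched rats and from 4.13 to 5.09 in the NMBA rats, so muscle RNA was present in both. The mean skeletal muscle level was -1.83 in gamma-enriched rat 5 against -0.04 to 0.27 in the other gamma-enriched rats. The mean endothelial level was -1.56 in gamma-enriched rat 3 and -0.70 in NMBA rat 5, the lowest of each group. Of 14 fibroblast and collagen markers 1 was called, the matrix proteoglycan gene Dcn at -0.74 ± 0.22. The part of these differences in tissue content in the immune and epithelial results was not tested.

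The gamma-enriched rats were also set against the other tocopherol groups. In limma 0 of 12343 genes were called between gamma-enriched and delta (0%), with 503 (4.08%) at an unadjusted p below 0.05, and 0 were called within slide 2, where 5 gamma-enriched and 2 delta rats lay together. Against alpha, 20 genes were called higher and 180 lower, together 200 (1.62%), of which 147 were also called against NMBA, a comparison that shares the gamma-enriched rats. No slide held both gamma-enriched and alpha rats, and only 6 of these calls were made when a gene had to be well above background on every array. The mixture and the pure forms may also have been given at different doses, which the sources used here do not give.

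No immune gene of the CXCR3, T cell, cytotoxic or MHC lists passed in either comparison. For Cxcl9 the difference from alpha was -0.41 with a 95% interval from -1.46 to 0.64, and from delta -0.06 with an interval from -1.11 to 0.99. For Cd3d the intervals were -1.35 to 0.51 against alpha and -1.38 to 0.48 against delta. For Cxcl9 and Cd3d these intervals leave room for differences of more than 2-fold. Zbtb16 passed against alpha: it was 1.74 ± 0.42 higher than in the alpha rats (adjusted p = 0.0363, limma), with mean levels of -2.62 in gamma-enriched, -2.76 in delta and -4.36 in alpha rats. The other named genes called against alpha were the dim Sslp1l1 (-2.37), Afp (-2.00), Or52n3 (-1.84), Cd79b (-1.45), Vom2r75 (-1.37) and Per1 (-1.03).

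Against Control, whose arrays also enter the variance and the slide-block values of the NMBA comparison, 78 of 12343 genes were called (0.632%), 45 higher and 33 lower. Without Control rat 1, the Control rat on the slide of the gamma-enriched rats, 697 were called, and leaving out 1 other rat of either group gave at least 25. Median levels of the T cell, class II, class I and interferon-induced lists lay -0.15, -0.26, -0.16 and -0.04 from Control in the gamma-enriched rats, beside 1.22, 0.69, 0.43 and 0.52 in the NMBA rats, and none of their genes was called between gamma-enriched and Control. The CXCR3 list lay 1.08 above Control in the gamma-enriched rats and 3.42 above it in the NMBA rats, with 0 of 4 called in the former. Cxcl10 was 2.18 above Control (adjusted p = 0.0574, limma). Gip, the gene of an incretin hormone of the gut, had levels of -2.65, -2.76, -2.62, -1.76 and -2.55 in the gamma-enriched rats, -2.55, -1.91, -1.47, -1.95 and -1.66 in the NMBA rats and -8.24 to -6.70 in the Control rats. It stood 5.01 above Control in the gamma-enriched rats (adjusted p = 3.42e-09, limma) and differed from NMBA by -0.56 ± 0.34 (adjusted p = 0.301, limma). Adm2 at 0.81 and Ttpa at 1.11 above Control were also called, and of these Adm2 differed from NMBA, by -0.59 ± 0.16.

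**Figure D5:**
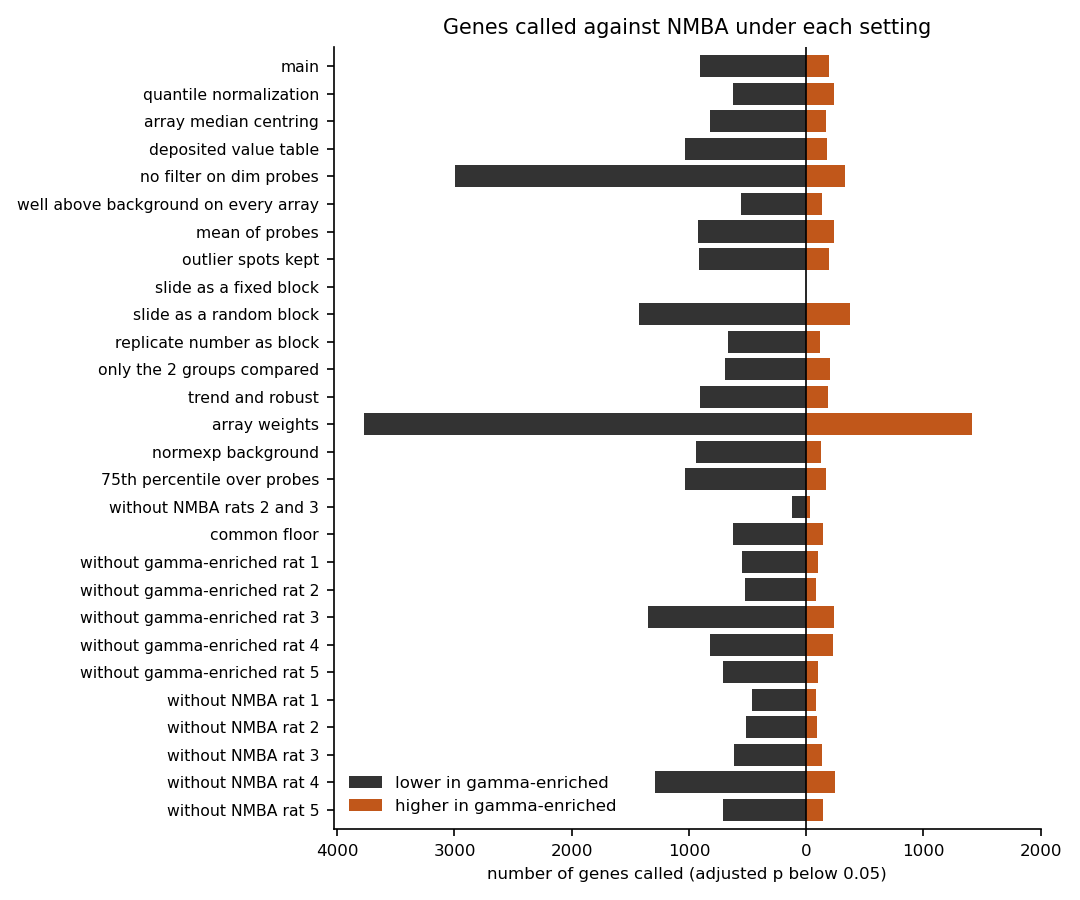
Number of genes called against NMBA (adjusted p below 0.05) under each setting, with falls drawn to the left and rises to the right of 0. The main setting has 909 falls and 196 rises, slide as a fixed block has 1 call in all, and leaving out NMBA rats 2 and 3 together gives 156.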

How the data were processed

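Total RNA was measured on 1-colour (Cy3) Agilent rat arrays, 1 array per rat, 5 rats in each of 5 groups. Each scanner file holds fluorescence intensity, background-subtracted and not normalized between arrays, per the file headers, which name Agilent Feature Extraction 11.5.1.1, whereas the submitters' processing notes name 10.7. The deposited value table is on a log2 scale; each column followed the log2 processed intensity of its array (lowest r = 1 as rounded), with column medians from -3.35 to -3. It served as an alternative.

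After spots called outliers by the scanner software were dropped, each probe's log2 processed signal was the mean of its spots, from which the array's 75th percentile over 58717 non-control spots was taken off. Of 30367 probes, 18355 matched 1 gene through RefSeq accessions, 12012 none and 0 several. The table of names belongs to GRCr8 and the array design to rn4, so it gave names and promoters only. Probes well above background on fewer than 5 arrays were left out, and the brightest remaining probe stood for its gene. limma 3.58.1 in R 4.3.3 estimated the 5 group means from the 25 arrays together (two-sided, Benjamini-Hochberg within each contrast at 0.05). No signal was saturated (0 spots), and the number of arrays limits the precision.

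Genes were named by rule: the 12 largest rises and 12 largest falls without overlap, up to 4 called members of each pathway list and up to 2 of each cell list, the brightest member where none passed, and Ccnd1, Mki67, Rela, Cxcr3, Cxcl9, Cxcl10, Cxcl11, Zbtb16, Krt4, Krt13, Cyp2a3, Nqo1, Cdkn1a, Ttpa and Gip, leaving out provisional symbols. This gave 115 genes, of which 98 were called against NMBA; other members named were chosen after their values were seen. Some results are not reported here. The groups, the 47 lists and the named genes were chosen with earlier results of these data known. On simulated data for this comparison over 12343 genes, 63% of genes set to change by 1 log2 unit and 94% of those set to change by 2 were recovered, with 8 unchanged genes called. The simulated noise was drawn for each gene apart and held no slide effect, so these counts do not bear on the part of slide. Promoters were matched for 88 of the 115 genes.

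Alternatives were quantile normalization, median centring, the deposited table, both limits of the filter on dim probes, the mean of probes, outlier spots kept, slide as a fixed or random block, rat number as a block, the 2 groups alone, eBayes with trend and robust, array weights and each rat left out. Added after the data were seen were normexp (offset 50) on the median signal, the percentile over probes, a common floor (values under the highest detection floor set to it) and leaving out NMBA rats 2 and 3. Rat numbers did not pair the samples: the deviations of gamma-enriched and NMBA rats of the same number correlated at -0.43 to -0.17 over genes.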

Additional observations from a re-analysis of the deposited data

Results flagged for a closer look

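Among the named genes, 230 groups of 5 rats were searched for a rat far from the other 4, and 16 held one. Chance alone marks about 1 in 20 such groups. In the NMBA rats, rat 4 was far below the others for Afp (-7.28), Ifnb1 (-6.34), RT1-DMb (1.28), Fth1 (3.65), Cst6 (4.19), Tgm1 (3.37) and Cd79b (-6.76), and rat 5 was far below them for Socs6 (-6.44). In the gamma-enriched rats, rat 3 was far below for Psmb8 (-2.60) and Ciita (-3.47) and far above for Ccnd1 (2.22) and Nqo1 (3.73). Rat 2 was far below for Stat2 (-0.16) and Cd79b (-9.35), rat 5 for the muscle creatine kinase gene Ckm (2.97), and rat 4 was far above for Gip (-1.76).

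The gamma-enriched and alpha groups differed in limma (adjusted p below 0.05) for 7 named genes. The gamma-enriched mean minus the alpha mean was -2.37 for Sslp1l1, -1.37 for Vom2r75, -1.84 for Or52n3, -2.00 for Afp, 1.74 for Zbtb16, -1.03 for Per1 and -1.45 for Cd79b.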

How the results depend on the processing

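Slide limits these results most, since the groups shared none; dim genes are limited by floors that differed between arrays, and 1 rat moves the counts by more than 1.5 times. Against NMBA (196 rises and 909 falls), no filter on dim probes gave 3321 (328 and 2993), a probe well above background on every array 691 (558 falls), slide as a fixed block 1 (1 and 0, with 397 genes at an unadjusted p below 0.05), slide as a random block 1805 (375 and 1430), array weights 5184 (1413 and 3771), and leaving out NMBA rats 2 and 3 gave 156 (34 and 122). For the random block the fitted correlation within slides was -0.031, so that setting does not remove a difference between slides. Normexp gave 124 rises. Leaving out 1 rat gave 546 to 1588 calls, 81 to 249 rises and 465 to 1347 falls. Array weights gave 72.7% falls. Of the 98 called named genes, 74 passed under quantile normalization, 88 under normexp and 0 with slide as a fixed block, where 18 changed sign; 98 passed with the deposited table.

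Against alpha (200), the calls were 6 with every array above background, 0 with the fixed slide block, 440 with the random one, 1161 with array weights, 63 with normexp, 9 with a common floor and 24 to 556 with 1 rat left out. Against Control (78), they were 33, 4, 308, 2219, 30 and 41 in the same order, 19 with the 2 groups alone, 50 with trend and robust, 40 without NMBA rats 2 and 3 and 25 to 697 with 1 rat left out. Against delta, limma called 0 in every setting run.

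Rat number as a replicate block gave 787 calls against NMBA (120 rises and 667 falls), 111 against alpha, 0 against delta and 34 against Control. No rat correlated best with its own number.

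With slide as a fixed block, signs turned for Pkn2 (-0.02), Sslp1l1 (0.38), Or52n3 (0.05), Afp (0.67), Ifnb1 (0.15), Aloxe3 (0.05), Apoe (0.13), Fabp5 (0.10), Ppara (0.11), Fth1 (0.23), Perp (0.26), Rfc3 (0.05), Sprr3 (0.24), Cst6 (0.28), Lypd3 (3e-04), Egr3 (0.73), Gpi (2e-04), Mmp13 (0.29), Cd80 (0.10), Zbtb46 (0.08), Cldn5 (-0.34), Actg2 (0.12), Ckm (0.81), Nqo1 (0.11), Cdkn1a (0.27) and Gip (0.42). They also turned with quantile normalization for Apoe (0.27) and Nqo1 (0.24), with normexp for Nqo1 (0.01), with array weights for Errfi1 (-0.01) and Ttpa (-0.13), without NMBA rats 2 and 3 for Cma1 (0.09) and Nqo1 (0.05), and with 1 rat left out for Cma1 (-0.64 without NMBA rat 5 to 0.13 without gamma-enriched rat 3) and Cldn5 (-0.03 without gamma-enriched rat 5 to 0.25 without gamma-enriched rat 3, and -0.02 without NMBA rat 5). The cause was not tested.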
